A study of Mus musculus with 4 samples.

Results

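The proteasome subunit genes were chosen by name: every gene listed for both libraries whose symbol begins with Psma, Psmb, Psmc or Psmd and a digit, without Psmb8, Psmb9 and Psmb10. This rule gave 37 of the 22649 genes listed for both libraries. The name covers a little more than the constitutive particle. Psma8, a germ cell alpha subunit, had 1 UMI in wild-type and 4 UMIs in humanized deep barcodes, and Psmb11, the thymus-specific catalytic subunit, had 5 and 1. Neither had a UMI in T barcodes of either library. Psmc3ip is a recombination factor that only shares its prefix with an ATPase, and it was at 26.2 and 20.2 CPM in deep barcodes. The other 34 genes encode subunits of the particle or chaperones that assemble its base.

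The proteasome is the main protease of the cytosol and nucleus, and it degrades proteins that carry ubiquitin chains. Its 20S core is a barrel of alpha rings, which gate the entrance, and beta rings, which hold the active sites of Psmb5, Psmb6 and Psmb7. The 19S particle on each end has a base of ATPases that unfold the substrate and a lid that removes the ubiquitin. Interferon-gamma and lymphoid identity bring in Psmb8, Psmb9 and Psmb10, which replace Psmb5, Psmb6 and Psmb7 to form the immunoproteasome, a particle whose products suit presentation on MHC class I.

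The libraries came from MC38 tumours, which are grown from a mouse colon carcinoma line. Hosts were wild-type mice and FOXP3 humanized mice, both 10 weeks old, with tumours taken on day 20 and no treatment in either group. The labels give 1 cDNA library for each genotype, do not say how many mice it holds or which part of Foxp3 is humanized, and describe cells separated on Percoll as tumour-infiltrating immune cells. Genotype therefore cannot be told apart from library, mouse or tumour, no test between genotypes was possible, and each 95% interval covers counting error only.

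Barcodes were read in 2 classes. Deep barcodes had 5000 or more UMIs (unique molecular identifiers, each standing for 1 captured transcript) and no UMI of Cd3e, Cd3d, Cd3g or Ptprc. They made up 87.2% of barcodes in both libraries: 6705 wild-type barcodes with a median of 16866 UMIs and 9671 humanized ones with 12522. T barcodes had under 5000 UMIs and at least 1 Cd3e, Cd3d or Cd3g UMI, which left 96 wild-type barcodes with a median of 1700.5 UMIs and 155 humanized ones with 1587. Fixed marker lists match the class names only in part. T cell markers summed to 9847 and 8316 CPM (UMIs per 1000000 UMIs of the class and library) in T barcodes and to 4.5 and 4.1 CPM in deep barcodes. Tumour markers summed to 1773 and 1754 CPM in deep barcodes, and still to 378 and 514 CPM in T barcodes, with 13 and 10 of the 27 tumour markers at 0 there. Myeloid markers were at 156 and 139 CPM in T and 17.2 and 11.7 CPM in deep barcodes, and B and NK cell markers at 119 and 129 CPM in T and 0.2 and 7.9 CPM in deep barcodes. The libraries share 1551 barcode labels, but these are running names rather than sequences.

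The classes differed in the make-up of the catalytic pairs, mainly through higher immunoproteasome subunits in T barcodes, so the sequences shown are the promoters of the pairs Psmb5 with Psmb8 and Psmb6 with Psmb9. Each run is the 250 bases before the RefSeq start on the gene's strand, from the RefSeq table of build GRCm38.p6, which is an earlier build than the GRCm39 named for the counts. Capitals mark a match to a searched pattern on either strand: TGACNNNGC, the core of the antioxidant response element, in Psmb5 and Psmb6, TTCNNNGAA, the STAT site called GAS, in Psmb8, and CCAAT, read as ATTGG on this strand, in Psmb9. Psmb5 lies at chr14:54617996-54618245 (minus strand), Psmb6 at chr11:70525107-70525356 (plus), Psmb8 at chr17:34197945-34198194 (plus) and Psmb9 at chr17:34187331-34187580 (minus).
Psmb5: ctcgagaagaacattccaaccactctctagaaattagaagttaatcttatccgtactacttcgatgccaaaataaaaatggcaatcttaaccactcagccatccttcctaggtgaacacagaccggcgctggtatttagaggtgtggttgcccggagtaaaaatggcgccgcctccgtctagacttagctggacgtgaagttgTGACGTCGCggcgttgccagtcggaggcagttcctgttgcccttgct
Psmb8: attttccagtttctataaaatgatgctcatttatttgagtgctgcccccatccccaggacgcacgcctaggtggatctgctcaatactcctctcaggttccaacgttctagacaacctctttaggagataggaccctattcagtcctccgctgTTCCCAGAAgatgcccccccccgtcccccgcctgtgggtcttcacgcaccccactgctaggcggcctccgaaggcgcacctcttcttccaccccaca
Psmb6: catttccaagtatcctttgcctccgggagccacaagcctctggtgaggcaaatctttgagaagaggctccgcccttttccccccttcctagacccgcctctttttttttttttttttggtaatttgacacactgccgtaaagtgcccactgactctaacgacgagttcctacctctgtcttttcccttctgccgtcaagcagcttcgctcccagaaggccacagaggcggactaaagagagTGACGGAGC
Psmb9: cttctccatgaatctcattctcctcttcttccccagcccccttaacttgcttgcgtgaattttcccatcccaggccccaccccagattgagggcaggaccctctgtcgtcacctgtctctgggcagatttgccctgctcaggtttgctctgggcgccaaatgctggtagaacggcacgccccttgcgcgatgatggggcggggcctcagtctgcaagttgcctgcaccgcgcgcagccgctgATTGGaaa
In Psmb5 the match begins 47 bases before the start and in Psmb6 it begins 9 bases before it. The Psmb8 match begins 97 bases and the Psmb9 match 8 bases before the start. Of the 37 members, 30 had a window in the table, with 32 windows in all. TGACNNNGC was found in 15.6% of member windows (5 of 32) and 10.2% of all 32851 windows of this length. TTCNNNGAA was in 0 of 32 member windows and in 7.02% of all windows. Of the 3 immunoproteasome windows only 1, that of Psmb8, had it. The window of Psmb10, not shown, had no match to any searched pattern. The interferon-stimulated response element, searched as GAAA, any 2 bases and GAAA, was in 3 of 32 member windows (9.38%) against 2.98% of all, namely in Psmb3, Psmd4 and Psmd9. It was in 0 of the 3 immunoproteasome windows. CCAAT was in 13 of 32 (40.6%) against 33.8%. Matches of different patterns were searched separately and could overlap, and a match describes the letters only.

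Deep barcodes gave the precise levels. The members together held 985758 UMIs in wild-type deep barcodes, or 7633 CPM (7618 to 7648), and 1134919 UMIs in humanized ones, or 8073 CPM (8059 to 8088). In T barcodes they held 1018 UMIs, or 5490 CPM (5158 to 5838), and 1519 UMIs, or 5426 CPM (5157 to 5706). A UMI counts a molecule whatever its length, so CPM was not divided by transcript length. Subunits that occur in equal copies in the particle were far apart in RNA. Among the 14 core genes without Psma8 and Psmb11, the highest was 7.04 times the lowest in wild-type and 10.1 times in humanized deep barcodes. Their order was close between the libraries. Across the 34 genes Spearman's rho was 0.994 between the deep sums and 0.844 between the T sums, and between deep and T barcodes it was 0.809 in the wild-type library and 0.875 in the humanized one. Genes are not independent replicates, so these values are descriptions.

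**Figure D1:**
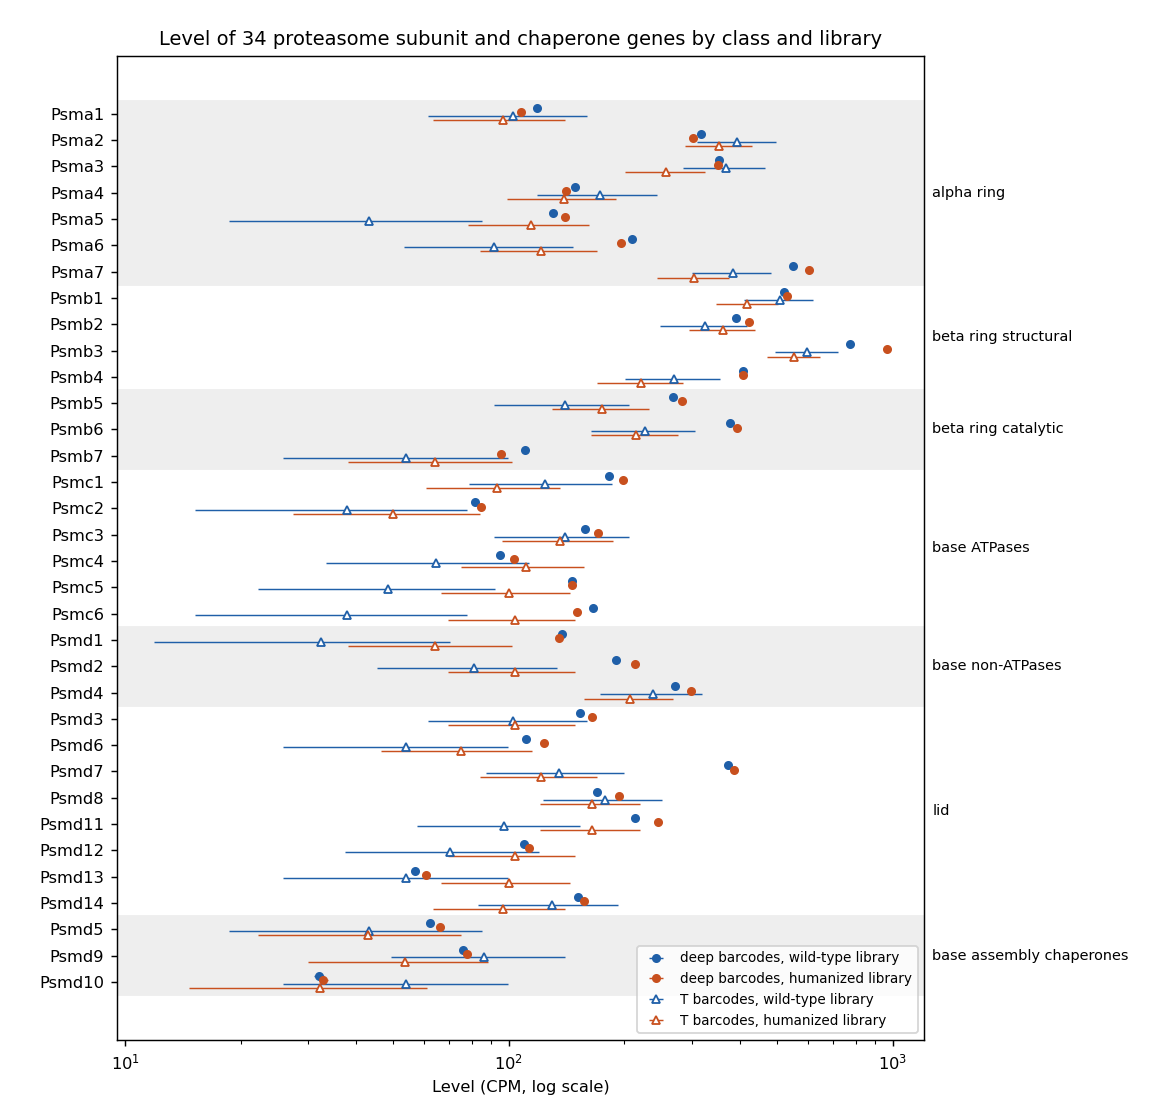
Level of 34 proteasome subunit and chaperone genes in CPM on a log scale (horizontal axis), by gene and role (vertical axis), for deep barcodes (filled circles) and T barcodes (open triangles) of each library, with 95% counting intervals. Psmb3 is highest in all 4 sums, and the T values of most 19S genes lie to the left of the deep values.

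In the alpha ring, which forms the gate, Psma7 was the highest member in deep barcodes at 549 and 605 CPM, and Psma1 the lowest at 118 and 108 CPM. Of the structural beta subunits, Psmb3 was at 773 CPM in wild-type and 964 CPM in humanized deep barcodes, the highest of all members, and at 599 and 554 CPM in T barcodes. Psmb2 was lowest of this group in wild-type deep barcodes at 391 CPM, and Psmb4 in humanized ones at 406 CPM. The catalytic subunits were unequal. Psmb6, the caspase-like subunit, was at 377 and 394 CPM in deep barcodes, Psmb5, the chymotrypsin-like subunit, at 268 and 282 CPM, and Psmb7, the trypsin-like subunit, at 110 and 95.2 CPM.

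The 19S genes were more even at the base than in the lid. The ATPases ran from Psmc2, at 81.7 and 84.8 CPM in deep barcodes, to Psmc1, at 182 and 198 CPM. Of the base subunits that are not ATPases, the ubiquitin receptor Psmd4 was highest at 271 and 299 CPM and the scaffold Psmd1 lowest at 138 and 135 CPM. In the lid Psmd7, the partner of the deubiquitinase Psmd14, was highest at 372 and 386 CPM, and Psmd13 lowest at 56.9 and 60.6 CPM, a 6.55-fold and 6.36-fold range. The base chaperones were the lowest group. Psmd9 was at 75.8 and 77.8 CPM and Psmd10, also known as gankyrin, at 32.0 and 32.9 CPM.

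In T barcodes the members as a whole were lower than in deep barcodes of the same library, while the immunoproteasome subunits were 4.06-fold and 3.96-fold higher. The summed members had log2 ratios of T over deep of -0.48 (-0.57 to -0.39) for wild-type and -0.57 (-0.65 to -0.50) for humanized barcodes. A member was called lower or higher when it had 20 or more UMIs in both sums together, differed 1.5-fold or more and had an interval that excluded no difference. In the wild-type library 14 of 35 measured members were lower and 0 higher. Over all 15992 genes compared in the same way, 7.2% were lower and 13.8% higher. In the humanized library 14 of 35 were lower and 1 higher, against 8.9% and 16.4% of 15454 genes. These backgrounds are dominated by rare genes. For the rarest of them a single T UMI, or a T sum of 0 set to 3 counts, gives a high ratio, and these cannot be called lower. Among the genes with at least 10 UMIs expected in T barcodes, a limit added after the data were seen, 36.7% were lower and 12.3% higher in the wild-type library, and 35.4% and 12.6% in the humanized one. Genes called lower numbered 1152 and 1375 without that limit and 849 and 1077 with it. Some of the genes that it leaves out were therefore called lower too. The expectation uses both sums together, so a gene passes almost only through its deep level, and genes found mainly in T barcodes are left out. The members' share of 14 in 35 is close to that background, and of the 33 members that pass this limit 14 were lower in each library. Their median log2 ratio of -0.55 and -0.57 lies beside -0.47 and -0.42 over all genes under that limit. The count moves with the scaling. Relative to the median of the genes under that limit, the summed members were at -0.0055 and -0.15, with 7 and 3 of the 33 members lower, against 19.7% and 20.7% of genes. Relative to the median of all genes compared, at 1.21 and 0.99, they were at -1.68 and -1.57, with 34 of 35 lower in each library, against 27.2% and 27% of genes. That median takes in rare genes whose T sum of 0 was set to 3 counts, which puts the ratio of the rarest above 0. The count under this scaling depends on that setting, and no conclusion is drawn from it. A lower member sum in T barcodes is thus a statement about shares of all UMIs. Beside the median gene under that limit, which favours genes abundant in deep barcodes, it was near 0 in the wild-type library and slightly below in the humanized one.

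**Figure D2:**
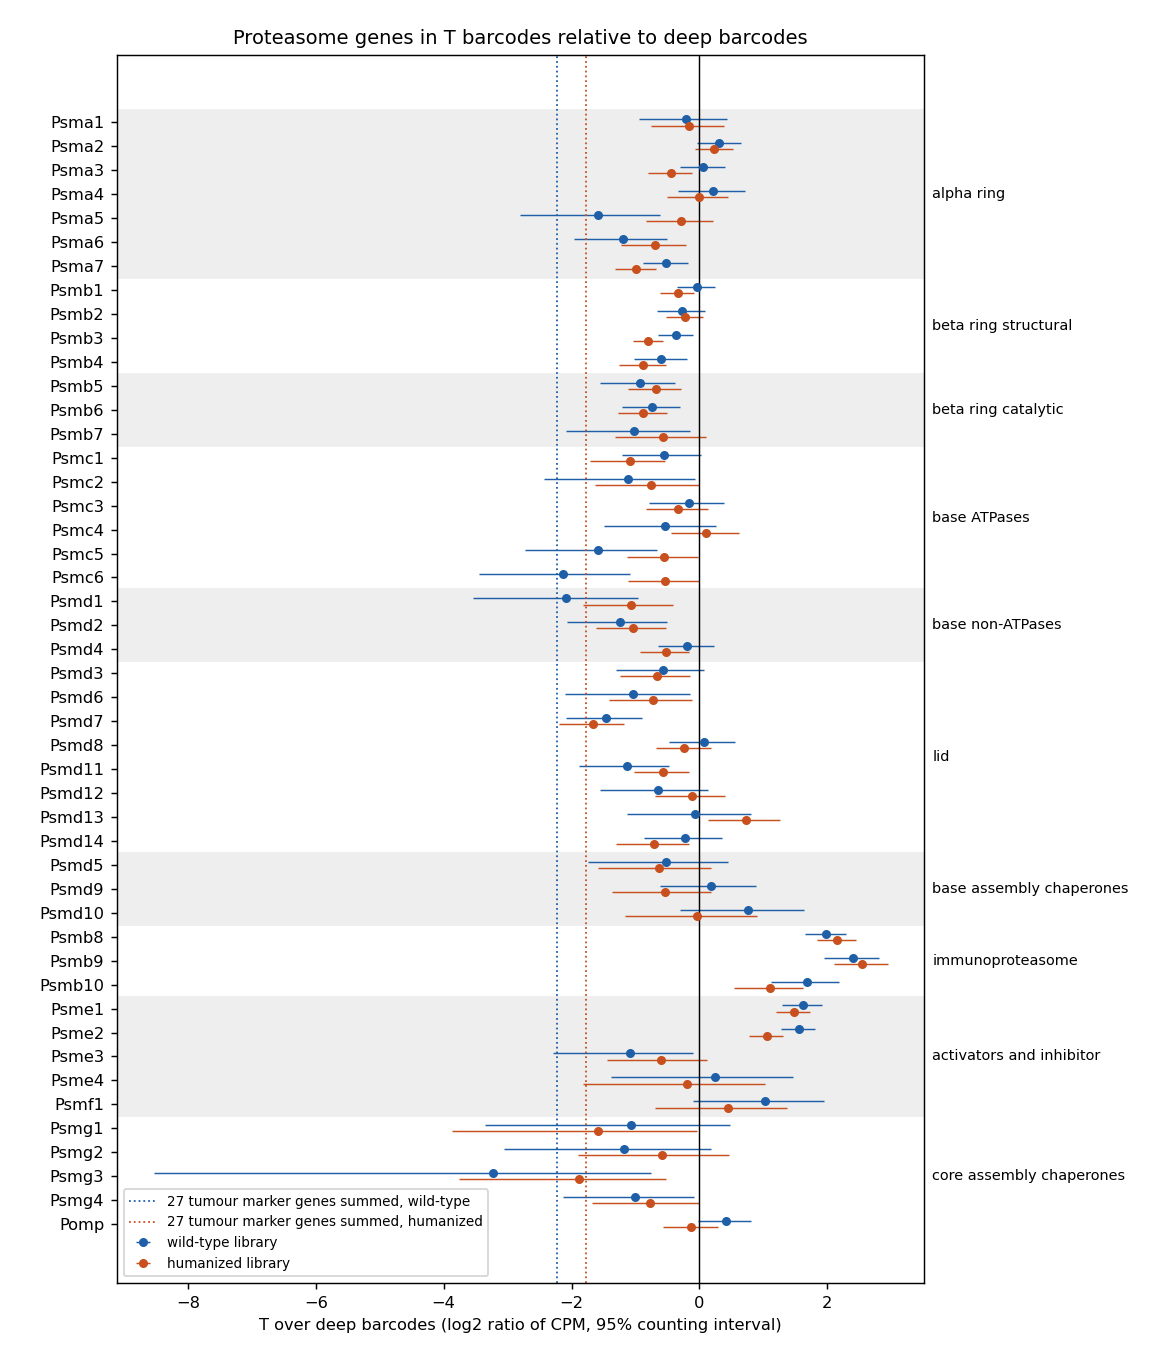
Log2 ratio of CPM in T over deep barcodes (horizontal axis) for member genes by role and for related genes (vertical axis), with 95% counting intervals, in each library. Most members lie left of 0, Psmb8, Psmb9, Psmb10, Psme1 and Psme2 lie right of it, and dotted lines give the summed tumour markers.

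By role, every group but the base chaperones was lower in T barcodes of both libraries, and the alpha ring by the least of these. The alpha ring was at -0.23 (-0.40 to -0.07) for wild-type and -0.41 (-0.56 to -0.27) for humanized barcodes, and the structural beta subunits at -0.30 (-0.47 to -0.14) and -0.58 (-0.72 to -0.44). The catalytic subunits were at -0.84 (-1.18 to -0.52) and -0.77 (-1.03 to -0.51). The base ATPases were at -0.87 and -0.52, the other base subunits at -0.77 and -0.79, and the lid at -0.71 and -0.64. The base chaperones were at 0.11 (-0.42 to 0.59) and -0.46 (-0.97 to 0.01). Taken as particles, the 20S core was at -0.35 (-0.46 to -0.24) and the 19S particle at -0.77 (-0.93 to -0.60) in the wild-type library, with intervals apart. In the humanized library they were at -0.54 (-0.63 to -0.45) and -0.63 (-0.76 to -0.51), with overlapping intervals, and whether the gap differs between the libraries was not tested.

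A set of 9 members met the fold in both libraries: Psma6, Psmb4, Psmb5, Psmb6, Psmc2, Psmd1, Psmd2, Psmd6 and Psmd7. All 9 are among the 33 members with at least 10 UMIs expected in T barcodes, where 30.1% of 2311 genes were lower in both libraries, and the members' share is near that. Among these, Psmd7 of the lid stood at 25 UMIs (135 CPM) in wild-type and 34 UMIs (122 CPM) in humanized T barcodes. Its log2 ratio over deep barcodes was -1.47 (-2.09 to -0.90) and -1.67 (-2.20 to -1.18). Psmd1, the large scaffold of the base, had 6 and 18 UMIs (32.4 and 64.3 CPM), with ratios of -2.09 (-3.54 to -0.97) and -1.07 (-1.82 to -0.41). Psmd2, the scaffold beside it, had 15 and 29 UMIs and ratios of -1.24 and -1.04. The catalytic subunits Psmb5 and Psmb6 were at -0.94 and -0.74 in the wild-type library and at -0.69 and -0.88 in the humanized one. Psma6, Psmb4, Psmc2 and Psmd6 were between -1.19 and -0.60 in the wild-type library and between -0.88 and -0.69 in the humanized one.

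Other members met the fold in a single library. In the wild-type library these were Psmc6 (7 UMIs, -2.13), Psma5 (8 UMIs, -1.59), Psmc5 (9 UMIs, -1.59), Psmd11 (-1.13) and Psmb7 (-1.03). In the humanized library they were Psmc1 (-1.09), Psma7 (-0.99), Psmb3 (-0.80), Psmd14, the deubiquitinase of the lid (-0.70), and Psmd3 (-0.67). Whether these differ between the libraries was not tested. The 1 higher member, Psmd13, had 28 UMIs in humanized T barcodes with a ratio of 0.72 (0.13 to 1.25), which no longer met the rule once its richest barcode was left out, and stood at -0.08 in the wild-type library. Psma2, an alpha subunit, was the only measured member above 0 in both libraries, at 0.31 (-0.04 to 0.64) and 0.23 (-0.07 to 0.52), and both intervals include 0. A further 27 members were below 0 in both.

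T barcodes carried RNA of the tumour marker list at 21.3% of the deep level in the wild-type library and 29.3% in the humanized one. Among T barcodes without any tumour marker UMI (49 and 79), a subset added after the data were seen, the summed members were at 5861 and 5126 CPM, with ratios over deep barcodes of -0.38 and -0.66. Under the limit of 10 expected UMIs, 11 of 25 and 12 of 31 members were lower there, against 38.5% and 40.2% of genes. The part of carried-over RNA in the member levels of the other T barcodes was not tested. Within T barcodes, those with 2000 or more UMIs had 5888 (5422 to 6384) and 6036 (5605 to 6493) member CPM, and those with fewer had 5025 (4561 to 5523) and 4968 (4629 to 5326). Barcodes with a Treg marker were at 5480 and 5898 CPM and those with a gamma-delta marker at 5043 and 5041 CPM, with overlapping intervals.

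The catalytic pairs differed in make-up between the classes. The constitutive catalytic subunits were at -0.84 and -0.77 for T over deep, and the immunoproteasome subunits were higher. In both libraries the constitutive ones lay below the alpha ring (-0.23 and -0.41) and the structural beta subunits (-0.30 and -0.58). Their interval was apart from both of these in the wild-type library only. The ATPases were at -0.87 and -0.52, the other base subunits at -0.77 and -0.79 and the lid at -0.71 and -0.64. Psmb8, which takes the place of Psmb5, had 84 and 93 UMIs in T barcodes (453 and 332 CPM) against 114 and 75.1 CPM in deep barcodes. Psmb5 itself had 26 and 49 UMIs in T barcodes (140 and 175 CPM). Psmb8 was thus the more abundant of its pair in T barcodes and Psmb5 in deep barcodes, in both libraries. The share of Psmb8 in the pair was 76.4% (67.3 to 83.9%) in wild-type and 65.5% (57.1 to 73.3%) in humanized T barcodes, and 29.9% (29.5 to 30.3%) and 21.0% (20.7 to 21.4%) in deep barcodes. Shares have exact Clopper-Pearson intervals.

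Psmb9, which replaces Psmb6, had 46 and 49 UMIs in T barcodes beside 42 and 60 of Psmb6. Its share was 52.3% (41.4 to 63.0%) and 45.0% (35.4 to 54.8%) there, and 11.1% and 7.11% in deep barcodes. Psmb10, which replaces Psmb7, had 31 and 30 T UMIs beside 10 and 18 of Psmb7. Its share was 75.6% (59.7 to 87.6%) and 62.5% (47.4 to 76.0%) in T barcodes, and 32.3% and 34.4% in deep barcodes. In all 3 pairs and both libraries the T interval lay above the deep one.

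**Figure D3:**
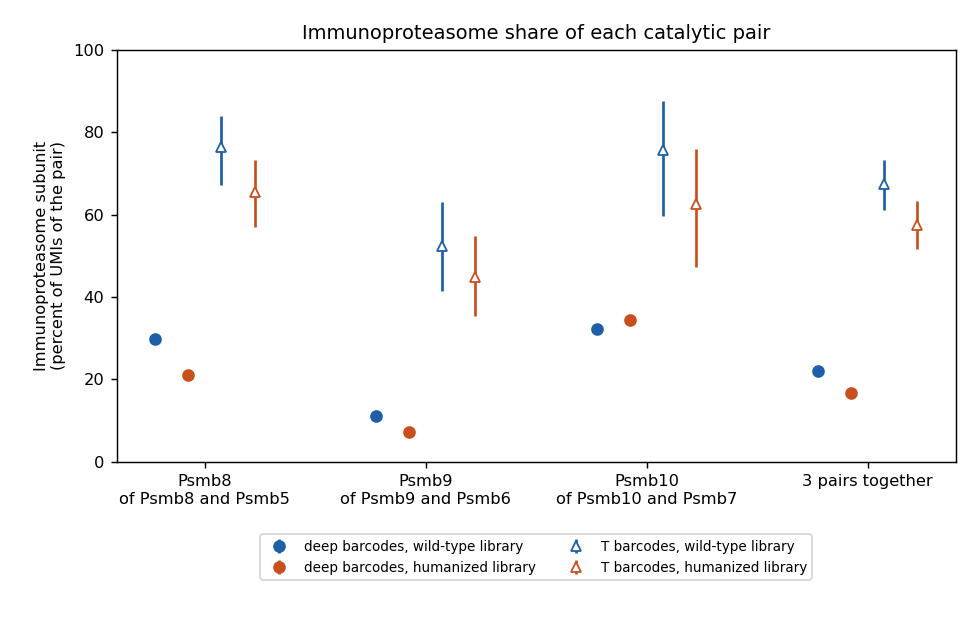
Immunoproteasome subunit as a percentage of the UMIs of its catalytic pair (vertical axis) for each pair and for the 3 pairs together (horizontal axis), in deep and T barcodes of each library, with 95% exact binomial intervals. Every T value, from 45.0% to 76.4%, lies above every deep value, from 7.11% to 34.4%.

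Over the 3 pairs the share was 67.4% (61.0 to 73.3%) in wild-type and 57.5% (51.7 to 63.2%) in humanized T barcodes, and these intervals overlap. It was 22.1% (21.8 to 22.3%) and 16.7% (16.5 to 16.95%) in deep barcodes. Without T barcodes that held a tumour marker UMI, the T shares were 71.6% (62.1 to 79.8%) and 65.9% (57.0 to 74.0%). The humanized T share also differed with depth: it was 65.9% (58.5 to 72.8%) under 2000 UMIs and 45.0% (35.9 to 54.3%) from 2000 UMIs, while the wild-type shares were 65.0% and 69.7%.

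Other genes that build or adorn the particle did not move as a block. Psme1 and Psme2, which form the interferon-inducible PA28 cap, were higher in T barcodes, with log2 ratios of 1.61 and 1.47 for Psme1 and 1.55 and 1.05 for Psme2. Psme3, the nuclear PA28-gamma, was at -1.08 and -0.60. Of 5 activator and inhibitor genes, 2 were higher and 1 lower in the wild-type library, and 2 higher and 0 lower in the humanized one. Of 5 chaperones of the core, 2 and 3 were lower and 0 higher. Psmg3 had 1 and 4 T UMIs and ratios of -3.23 and -1.89, whereas Pomp, the maturation factor, was at 0.41 and -0.13. Of 10 partners of the particle outside the name rule, such as receptors, shuttles and ubiquitin-trimming enzymes, 3 were lower in each library and 0 and 1 higher. Of all genes compared, 7.2% and 8.9% were lower and 13.8% and 16.4% higher. With at least 10 UMIs expected in T barcodes, 36.7% and 35.4% were lower and 12.3% and 12.6% higher. The counts of these short lists are therefore not read as a result about them. The ubiquitin receptor Adrm1 was at -1.21 and -0.99. Nfe2l1, the transcription factor Nrf1 that restores proteasome genes after proteasome inhibition, was at -0.78 and -1.20, and the ubiquitin gene Ubb at 0.61 and 0.65. Interferon response genes summed to 1073 and 943 CPM in T barcodes and 282 and 227 CPM in deep barcodes.

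Between genotypes the deep barcodes differed little in member RNA. On the log2 scale the summed members were at 0.081 (0.077 to 0.085) for humanized over wild-type, a 1.06-fold difference. Of 35 members with at least 100 UMIs, 25 were above 0 and 10 below. For 22 the interval was wholly above 0, against 10.1% of 13728 genes, for 8 wholly below, against 64.8%, and for 5 it included 0. At 1.2-fold, 1 member was higher, against 2.52% of 13728 genes, and 1 lower, against 39.5%. The median was 0.05 for the members and -0.21 for all genes compared, and -0.12 for the 5189 genes with at least 5000 UMIs. Relative to the median gene, the summed members were at 0.29, with 18 members higher, against 12.2% of genes, and 0 lower, against 16.8%. The direction of small differences of single members therefore depends on the scaling: 81.7% of all genes were below 0, and 28.6% of the members. The summed members were above 0 under each alternative tried, from 0.081 to 0.29.

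**Figure D4:**
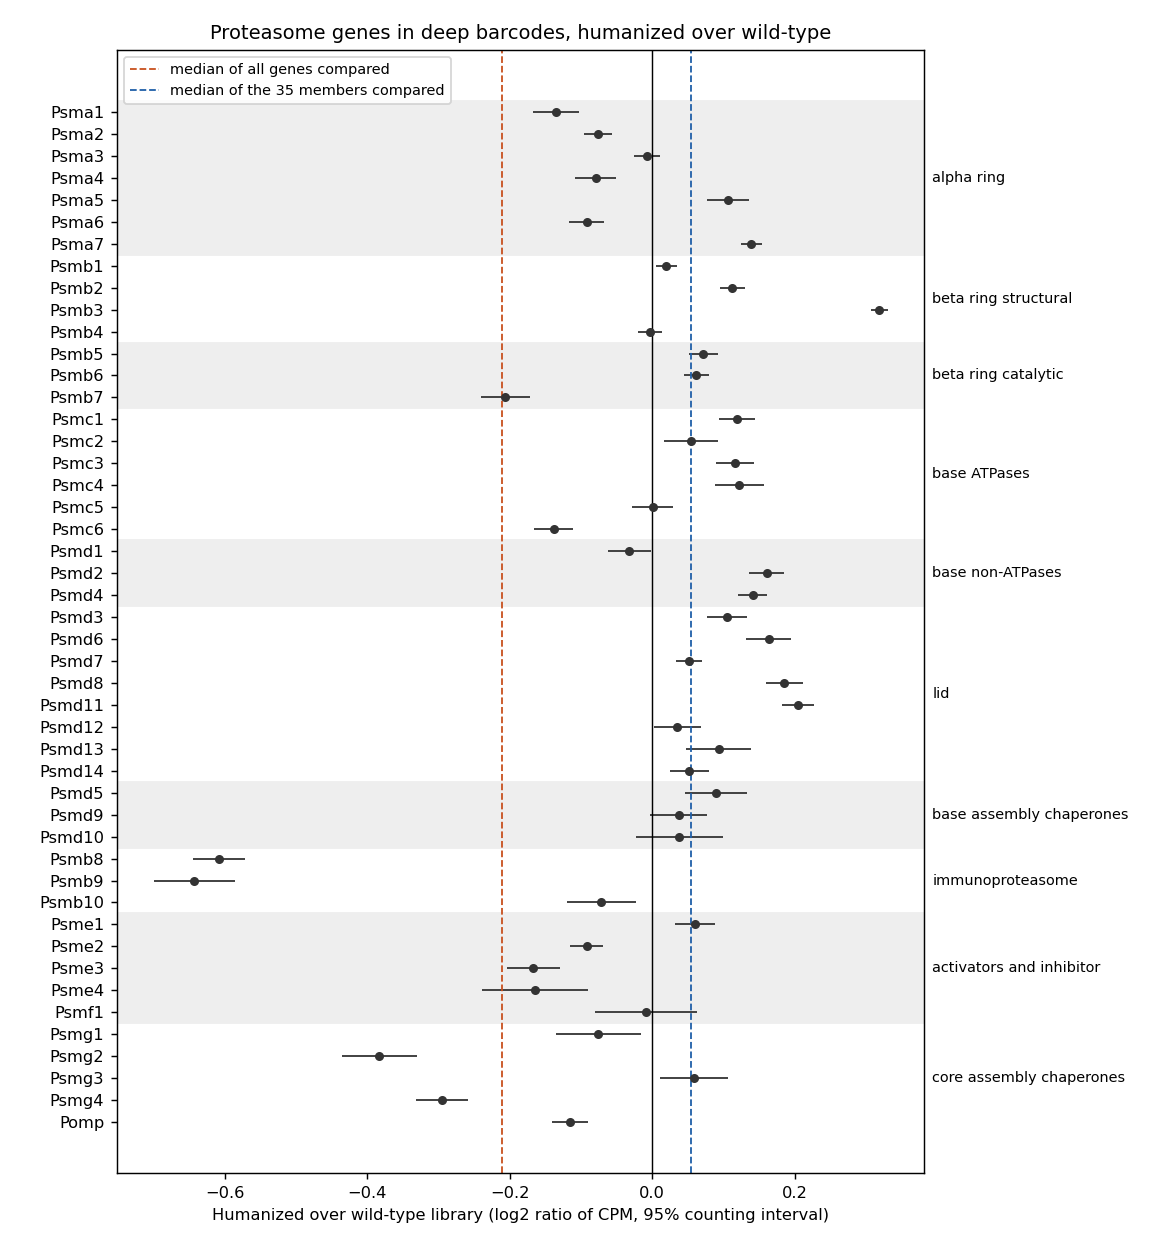
Log2 ratio of CPM in humanized over wild-type deep barcodes (horizontal axis) for members by role and for related genes (vertical axis), with 95% counting intervals. Dashed lines mark the median of all genes compared at -0.21 and of the 35 members at 0.05, and Psmb8 and Psmb9 lie furthest to the left at -0.61 and -0.64.

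Psmb3 was the higher member, at 0.32 (0.31 to 0.33), and Psmc3ip, which is no subunit, the lower one at -0.38 (-0.45 to -0.30). Psmb7 was at -0.21 (-0.24 to -0.17), the lowest of the subunits, while Psmb5 and Psmb6 were at 0.07 and 0.06. The alpha ring was at 0.01, the structural beta subunits at 0.15, the ATPases at 0.04, and the lid and the other base subunits at 0.11 each. Psmb8 at -0.61 and Psmb9 at -0.64 were below every measured member, while Psmb10 at -0.07 lay within the range of the members. Of 15 measured interferon response genes, 10 were lower at 1.2-fold and 0 higher, beside the 39.5% lower and 2.52% higher of all genes. In 4 ranges of barcode depth the summed members were at 0.09, 0.12, 0.09 and 0.12, so the small excess was present at each depth. The list of hypoxia and glycolysis genes took 12775 CPM of the wild-type and 15910 CPM of the humanized deep UMIs, and its part in the ratios was not tested.

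In T barcodes the summed members were at -0.02 (-0.13 to 0.10) for humanized over wild-type. Of 33 members with at least 20 UMIs, 2 were higher at 1.5-fold, against 2.54% of 3388 genes, and 0 lower, against 5.87%. The 2 were Psmc6, with 7 and 29 UMIs (1.46, 0.23 to 2.89), and Psma5, with 8 and 32 UMIs (1.41, 0.26 to 2.73). Neither had 100 UMIs. For 30 of the 33 members the interval included 0, so differences of this size were mostly not detectable at this depth. The 20S core was at -0.11 (-0.26 to 0.03) and the 19S particle at 0.22 (0.02 to 0.43). Relative to the median gene, at -0.12, 4 members were higher, against 4.13% of genes, and 0 lower, against 3.93%. In T barcodes without a tumour marker UMI the sum was at -0.19, with 1 of 21 members higher, against 3.46%, and 3 lower, against 6.63%.

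Among deep barcodes, member RNA varied with cell state. Each barcode was thinned to 5000 UMIs, and barcodes at or above the 90th percentile of a programme's summed UMIs were set beside the others of the same library. Barcodes are not replicates, so the intervals cover counting error and no test was made. Barcodes rich in interferon response genes had 436 CPM of the immunoproteasome genes against 178 CPM in the wild-type library and 342 against 134 CPM in the humanized one (log2 ratios 1.30 and 1.36). Their constitutive catalytic subunits stood at 744 against 744 CPM and 728 against 767 CPM. On the log2 scale the interval of that difference ran from -0.051 to 0.050 in wild-type barcodes, and in humanized ones it was -0.07 (-0.12 to -0.03), so the subunits that are replaced were at most slightly lower where their counterparts were higher. Median depth before thinning was 14528 UMIs in the interferon-rich and 17213 in the other wild-type barcodes, and 10868 and 12712.5 in the humanized library. The part of depth in the interferon ratios was not tested.

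Members were higher in barcodes rich in integrated stress genes, such as Chac1, Ddit3 and Asns, which are induced when translation is curbed through eIF2-alpha. All 35 measured members were above 0 in both libraries, where 65.1% of wild-type and 69.1% of humanized genes were above 0. Their sum was 8316 against 7332 CPM in wild-type (0.18, 0.17 to 0.20) and 8764 against 7809 CPM in humanized barcodes (0.17, 0.15 to 0.18). The 19S particle was at 0.22 and 0.25 and the 20S core at 0.16 and 0.11. Psmc2 was highest at 0.48 and 0.51, and Psma7 was at 0.04 and 0.003. The immunoproteasome genes were at -0.09 (-0.19 to 0.01) and -0.15 (-0.25 to -0.05). With the 80th percentile as the limit they were at -0.06 in each library, and both intervals included 0. Median depth before thinning was 18624 UMIs in the high and 16549.5 in the other wild-type barcodes, and 13059 and 12462 in the humanized library, and across barcodes member RNA had a Pearson's r of 0.12 with depth in both.

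**Figure D5:**
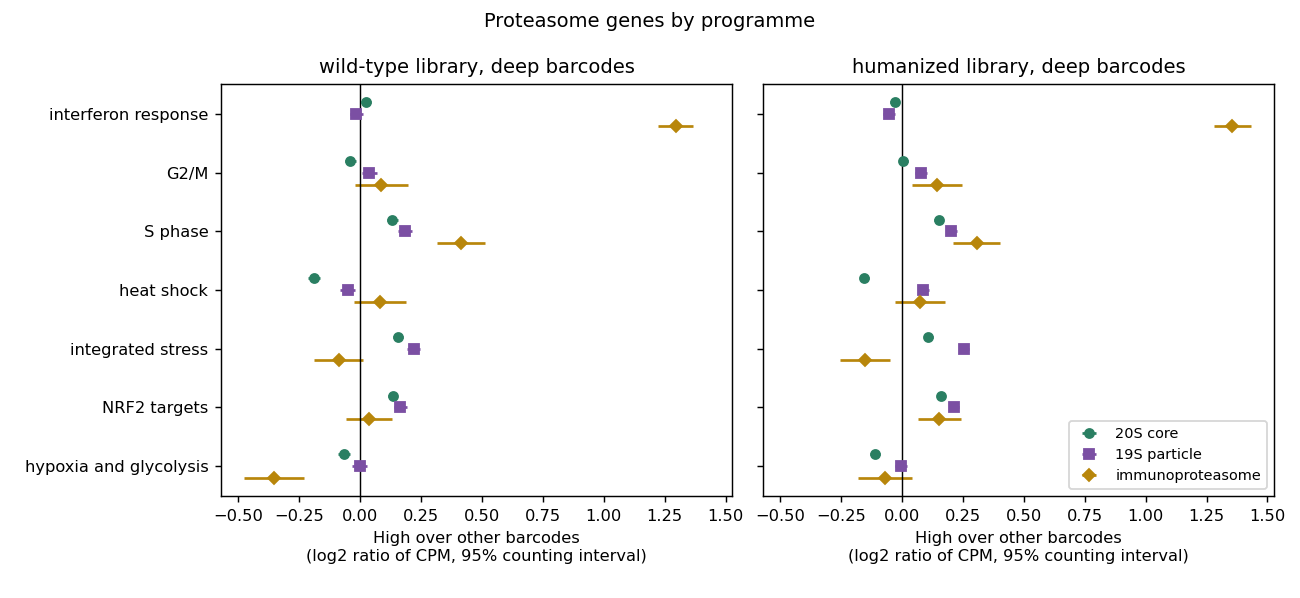
Log2 ratio of CPM between deep barcodes high for a programme and the others (horizontal axis), for the 20S core, the 19S particle and the immunoproteasome genes, by programme (vertical axis) and library (panels), with 95% counting intervals. The immunoproteasome genes stand at 1.30 and 1.36 for the interferon response, while the constitutive genes stay between -0.19 and 0.25 throughout.

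NRF2 targets are antioxidant genes driven by the transcription factor Nfe2l2. In barcodes rich in them the members were at 0.14 and 0.18, with 33 and 34 of 35 above 0, against 59.3% and 68.6% of genes. S-phase barcodes gave 0.16 and 0.17, with 33 of 35 above 0 in each library, against 63.8% and 65% of genes. There Psmc3ip, which acts in homologous recombination, stood far above the others at 1.45 and 1.44. The 20S core was lower in barcodes rich in heat shock genes and in those rich in hypoxia and glycolysis genes. In heat shock barcodes it was at -0.19 (-0.21 to -0.16) and -0.15 (-0.17 to -0.14), with 14 of 14 and 11 of 14 core genes below 0, while the 19S particle was at -0.05 and 0.09. Over all 35 members 29 and 16 were below 0, against 48.1% and 42.3% of genes. Psmb5 was lowest, at -0.36 and -0.34. For G2/M the members were at -0.01 and 0.03, and for hypoxia and glycolysis at -0.04 and -0.07. In the last the 20S core was at -0.07 (-0.09 to -0.04) and -0.11 (-0.13 to -0.09). Median depth before thinning in high and other barcodes was 19556 and 16546 UMIs (wild-type) and 14675 and 12305 (humanized) for S phase. For heat shock it was 14411.5 and 17129, and 11895.5 and 12585. For hypoxia and glycolysis it was 14307 and 17160.5, and 10412.5 and 12752. For G2/M it was 22444 and 16435.5, and 15492 and 12230. The part of depth in these ratios was not tested.

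From barcode to barcode the members varied together only loosely. Thinned to 5000 UMIs, a deep barcode held a mean of 37.3 member UMIs (SD 9.94) in the wild-type library and 39.6 (SD 11.3) in the humanized one, a variance of 2.65 and 3.25 times the mean. The 20S and 19S sums had a Pearson's r of 0.35 over 6705 barcodes and 0.43 over 9671. Each of the 27 members with at least 0.5 thinned UMIs a barcode had a median r of 0.16 and 0.19 with the sum of the other members, against 0.06 and 0.07 for 1091 other genes of that level with the sum of all. Sparse counts keep such values low, and the barcodes of a library share its preparation and depth.

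The genes outside the list whose counts most resembled the summed members were, in order of the lower of both values of r, Eif5a, Eif4a1, Ran, Pfn1, Actb, Srsf3, Hnrnpab, Ranbp1, Actg1 and Eif6. They encode translation factors, the nuclear transport GTPase Ran and its binding protein, actins and the actin-binding profilin, and RNA-binding proteins. Eif5a was at 0.41 and 0.44 and Eif6 at 0.31 and 0.33. Of these 10, 8 were also among the top 10 on a log scale without thinning. The lowest values belonged to the ribosomal protein genes Rps27, Rpl39, Rpl23 and Rps21 and the metallothionein gene Mt1, from -0.47 to -0.39. Those genes are abundant, at 22.4 to 42.4 thinned UMIs a barcode, and counts thinned to a fixed total are not independent of each other.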

How the data were processed

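Each genotype gave 1 cDNA library of single cells from MC38 tumours. Oligo libraries are left out. Deposited values are raw UMI counts by gene and barcode, and per the file headers PISA 1.0 made the matrices. Per the submitters' processing notes the build was GRCm39. How reads were aligned and annotated and how cells were called is not given in the sources used here. Genes go by their listed symbols. No doublet caller was run, so doublets remain in both classes.

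UMIs were summed per class and library with Python 3.11.15, numpy 2.4.6, scipy 1.17.1 and pandas 2.3.3. Totals were 129144384 wild-type and 140575771 humanized UMIs for deep barcodes and, for T barcodes, 185429 and 279949. Levels have exact Poisson, shares Clopper-Pearson and ratios exact conditional binomial intervals, all at 95%, and a sum of 0 was set to 3 counts in a ratio. Calls needed 1.5-fold (1.2-fold between deep sums), an interval excluding no difference, and 20 UMIs over both sums (100 between deep sums). PCR copies are collapsed by UMIs, and intervals cover counting error only. The ratio code was tested on simulated data. The members, gene lists and comparisons were chosen with earlier results of these data known, and the naming rule took the catalytic pairs, the extremes of each role, members past the fold or with few UMIs, and the genes most and least like the sum. Genes named beyond that rule, chosen after their values were seen, are the related genes outside the list, Psma2, Psmd9 and the members named within a programme. Alternatives changed the scaling, barcode limits, weights, thinning and minimum counts.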

Additional observations from a re-analysis of the deposited data

Results flagged for a closer look

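Barcodes outside both classes also carried the member genes, and no comparison above uses them. Deep barcodes with a CD3 or Ptprc UMI held 7398 member CPM in the wild-type library (113 barcodes) and 8066 in the humanized one (223 barcodes). Shallow barcodes without a CD3 UMI held 7477 member CPM in the wild-type library (777 barcodes) and 8647 in the humanized one (1038 barcodes). All 4 values stand above the level that 3 counts would give and above the T level of the same library, and their immunoproteasome shares over the 3 pairs, 23.8% and 20.8% in the first kind and 26.3% and 20.7% in the second, lie well below the T shares.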

How the results depend on the processing

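No paired analysis was possible because each genotype has 1 cDNA library. Of the recomputed values, 123 stayed within their interval or within 1.5 times the count and 54 moved further, and none changed direction where an interval excluded 0. Without mitochondrial and ribosomal genes, the summed members were at 0.12 (humanized over wild-type, deep), -0.63 and -0.69 (T over deep, wild-type and humanized). Centred on the median gene, they were at 0.29 (deep), 0.10 (T), -1.68 and -1.57 (T over deep), with 18 members higher and 0 lower (deep), 4 higher (T), 34 lower in each T over deep ratio and 0 higher in the humanized one. The T over deep medians of 1.21 and 0.99 rest on rare genes, including those whose T sum of 0 was set to 3 counts. Centred on genes with 10 UMIs expected in T, an alternative added after the data were seen, T over deep sums were at -0.0055 and -0.152, with 7 and 3 members lower and 2 higher in each. With that limit and no tumour marker UMI in T, 0 were higher in the humanized library. With 10000 UMIs for deep barcodes, the deep sum was at 0.0913 and the humanized deep immunoproteasome share 16.4%. Requiring 2 CD3 UMIs gave 1 lower member between T sums. Averaged over barcodes, no interval was computed, so a call needed only the fold and the minimum counts, unlike the main calls. In that setting 6 members were higher and 1 lower between T sums, 1 higher in wild-type T over deep, and deep shares were 22.7% and 17.2%. Deep barcodes of 10000 to 20000 UMIs gave 0.12, 0 lower members and a wild-type share of 23.7%. Thinned to 1000 UMIs, the deep sum was at 0.0912 with 2 members higher and 0 lower, 1 was lower between T sums, 9 were lower in wild-type and 0 higher in humanized T over deep, and deep shares were 22.4% and 17.2%. Without each gene's richest barcode, 0 were higher in humanized T over deep, and with a minimum of 100 UMIs, 0 between T sums. Without T barcodes that held a tumour marker UMI, an alternative added after the data were seen, sums were at -0.19 (T), -0.38 and -0.66 (T over deep), with 1 higher and 3 lower between T sums and a humanized T share of 65.9%. At the 80th percentile, programmes gave 0.0439 and 0.0768 (G2/M, wild-type and humanized), 0.13 and 0.16 (S phase), -0.0937 and -0.0334 (heat shock), and 0.16 (integrated stress, wild-type). The cause was not tested for these changes. Where no share of all genes is given above for a member count in this section, that share was not computed. Those counts are not read as a result about the members. T sums of about 1000 to 1500 member UMIs limit single members there.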
